A study of Drosophila melanogaster with 7 samples.

Results

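The report is about 8 protein-coding genes of Drosophila melanogaster that carry no name beyond their CG number: CG14645, CG13323, CG13324, CG5506, CG13315, CG42807, CG9568 and CG43349. They are 8 of the 17619 feature entries counted in single-cell libraries of midgut tumors. They were chosen because their UMI counts led a cluster of enterocyte-like cells among the kept cells of the same 7 libraries. All values in kept cells are therefore a description and were not tested. Kept cells had 100 to 2000 genes and at most 15% of their UMIs from mitochondrial (mt:) genes, which left 7998 of 9914 cells. A UMI is a molecular tag that lets copies of 1 captured transcript be counted once.

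The study examined the metabolism of intestinal tumors in the fly. Single tumors gave 6 libraries (Tind1 to Tind6), and 6 tumors processed together gave another (Tgrp), in which a cell's tumor of origin is unknown. All came from 1 genotype, so no treated or control group exists, and the 6 tumors were the replicates. The flies carried UAS-RasV12 and, on an FRT82B chromosome, the alleles Apc2N175K and ApcQ8, from a yw, HS-flp line. They were crossed to a yw line with HS-flp and HS-mflp5, with esg-gal4 joined to UAS-flybow, and with Tub-Gal80 on FRT82B. A heat shock of 2 h at 37°C induced clones 2 to 3 days after eclosion. Flies with visible GFP were taken at least 21 days later for dissection of their tumors. The esg driver is active in intestinal stem cells and enteroblasts, so transgenes can fall silent in cells that differentiate. Dissected tissue can hold cells other than those of the clones.

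Enterocytes are the absorptive cells of the fly midgut, formed from stem cells through enteroblasts. They are sealed to each other by smooth septate junctions, which are built from the membrane proteins mesh, Ssk (Snakeskin) and Tsp2A. The transcription factor nub (Pdm1) marks them, and they secrete digestive enzymes such as the trypsins alphaTry and betaTry and the Jonah proteases. No function is annotated for the 8 genes in the sources used here.

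The libraries held 289733 to 6354105 UMIs, and the median kept cell had 317 (Tind3) to 2383.5 UMIs (Tind4). To compare shares of cells at equal depth, 300 UMIs were drawn per cell, which 7694 kept cells allowed. The 304 shallower cells left out were 181 of Tind3, 87 of Tind5 and 36 of Tind6. Tind5 shared 116 cell barcodes with Tind4, against at most 3 between any other pair of libraries. These were 99 of the kept Tind5 cells (15.2%), and values that rest on Tind5 are given without them as well.

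The genes lie on both arms of the second and of the third chromosome by the release 6 (dm6) annotation. CG13323 (FBgn0033788) spans 2R 13044695 to 13047256 and CG13324 (FBgn0033789) spans 2R 13049146 to 13049656. Both are on the minus strand, 1889 bases apart, and each encodes a reading frame of 336 coding bases in 1 exon. Whether reads of one of this pair can match the other was not checked, so their separate levels are less certain than those of the other genes. CG42807 (FBgn0261989) lies on the same arm, 2R 13570595 to 13572759, minus strand, 2 exons, with 834 coding bases.

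CG9568 (FBgn0032087) spans 2L 9010583 to 9011358 on the plus strand, has 3 exons and 450 coding bases. CG43349 (FBgn0263081) spans 2L 1200205 to 1200663, also on the plus strand, 1 exon, with 210 coding bases. It stands between 2 other small genes of the same strand, 280 bases from CG43348 and only 7 bases from CG5011. Reads that run past a gene's end cannot be told from its neighbour's here, so CG43349 and CG5011 may share some counts.

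CG13315 (FBgn0040827) spans 3L 9096877 to 9097494, plus strand, with 207 coding bases. CG5506 (FBgn0036766) spans 3L 17883649 to 17884376, minus strand, 2 exons and 540 coding bases, and overlaps the oppositely oriented CG7408 by 5 bases. CG14645 (FBgn0040687) is a gene of 1 exon at 3R 4335098 to 4335506, plus strand, with 291 coding bases. All of its 409 bases lie within Skp2, which runs on the opposite strand.

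The 8 genes fell into those seen in every tumor and those seen in some. Only CG9568 and CG43349 had UMIs in the kept cells of all 6 tumors. CG9568 had 115, 113, 554, 201, 72.5 and 79.0 CPM (UMIs of the gene per 1000000 UMIs of the cells concerned, here the library's kept cells) in Tind1 to Tind6 and 321 CPM in Tgrp. Its mean over the tumors was 189 ± 184 CPM (SD, n = 6). CG43349 had 136, 75.6, 471, 237, 76.1 and 87.8 CPM in Tind1 to Tind6 and 337 CPM in Tgrp, with a mean of 181 ± 155 CPM (SD, n = 6). For both genes Tind3 was highest among the tumors and Tind4 next.

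At equal depth the order of the libraries for CG9568 was Tind3, Tind4, Tgrp, Tind6, Tind1, Tind2 and Tind5. A CG9568 UMI was found in 7.11% of Tind3 cells (exact 95% interval 4.03 to 11.5), 6.36% of Tind4 cells (4.74 to 8.33) and 4.83% of Tgrp cells (4.08 to 5.67). The shares were 2.20% in Tind6 (0.811 to 4.72), 2.18% in Tind1 (1.59 to 2.91), 1.46% in Tind2 (0.781 to 2.49) and 1.42% in Tind5 (0.614 to 2.78). The intervals of all neighbours in this order overlapped, while those of Tind3, Tind4 and Tgrp lay above those of Tind1, Tind2 and Tind5. The intervals cover counting error only.

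CG13315 was found in 5 of 6 tumors, with none in Tind3. It had 20.4, 41.9, 25.7, 234 and 26.3 CPM in Tind1, Tind2, Tind4, Tind5 and Tind6, and 178 CPM in Tgrp. Tind5 stood above the other tumors, also without the shared barcodes (254 CPM). The mean over the tumors was 58.0 ± 87.2 CPM (SD, n = 6).

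The remaining 5 genes were uneven from tumor to tumor. CG14645 had 35.6, 9.87, 0, 0.451, 1.81 and 0 CPM in Tind1 to Tind6 and 663 CPM in Tgrp. CG5506 had 30.9, 84.7, 5.54, 4.06, 5.44 and 0 CPM in Tind1 to Tind6 and 171 CPM in Tgrp. CG42807 had 2.88, 103, 0, 1.81, 5.44 and 8.78 CPM in Tind1 to Tind6 and 138 CPM in Tgrp. All 3 genes were higher in Tgrp than in any single tumor.

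CG13323 and CG13324 were seen in the same 4 libraries and in no others. CG13323 had 20.6, 834 and 116 CPM in Tind1, Tind2 and Tind5 and 129 CPM in Tgrp. CG13324 had 1.65, 474 and 14.5 CPM in Tind1, Tind2 and Tind5 and 51.6 CPM in Tgrp. Neither had a UMI in Tind3, Tind4 or Tind6, where 3 counts would be 16.6, 1.35 and 13.2 CPM. The zeros of the shallow libraries Tind3 and Tind6 therefore allow for low levels. The SD over the tumors exceeded the mean for CG14645 (7.96 ± 14.1 CPM), CG13323 (162 ± 332), CG13324 (81.8 ± 192), CG5506 (21.8 ± 32.7) and CG42807 (20.3 ± 40.5).

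**Figure D1:**
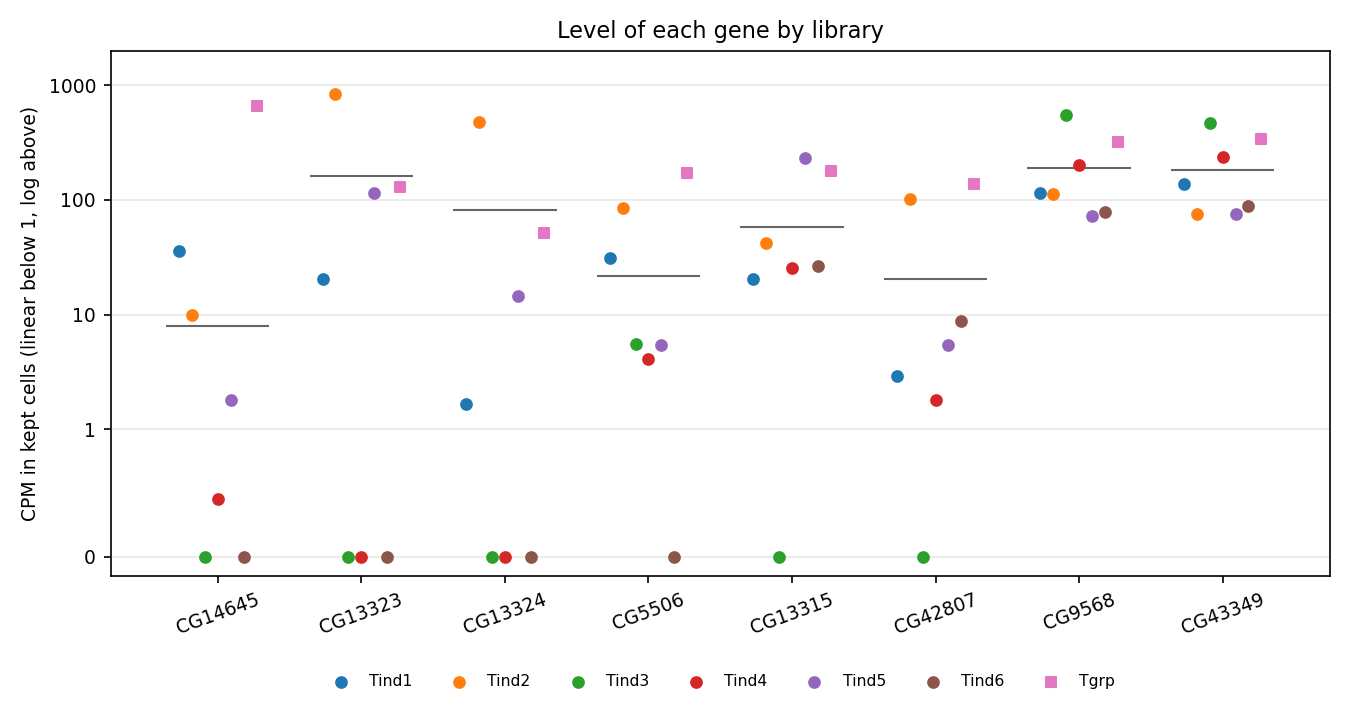
CPM in kept cells (y axis, linear below 1 and logarithmic above) for each gene (x axis). Circles are the 6 tumors, squares the group library Tgrp, and lines the means over the 6 tumors. CG9568 and CG43349 lie above 70 CPM in every library, whereas CG13323 and CG13324 are at 0 in Tind3, Tind4 and Tind6.

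The uneven genes owed their levels to very few cells. Of the 3593 UMIs of CG14645 in kept cells, 92.6% lay in 1 Tgrp cell. The richest cell held 67.0% of the UMIs of CG13324, 64.6% of CG5506 and 52.5% of CG13323. It held 10.7% for CG42807, 6.44% for CG13315, 3.80% for CG9568 and 3.11% for CG43349. The richest cells that together held 90% of the UMIs numbered 1 for CG14645, 4 for CG13324, 10 for CG5506, 22 for CG13323, 38 for CG42807, 195 for CG13315, 441 for CG9568 and 463 for CG43349. The last 2 genes were the ones spread over many cells, with a UMI in 9.20% and 9.73% of kept cells at full depth.

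Without the richest cell of a library, CG14645 was at 15.4 CPM in Tgrp, against 663 with it. In Tind2, CG13323 was then at 40.6 CPM against 834, and CG13324 at 1.66 CPM against 474. CG5506 was at 27.1 CPM in Tgrp against 171, and at 7.41 CPM in Tind2 against 84.7. CG42807 in Tind2 was at 38.9 CPM against 103. CG9568 and CG43349 changed less: in Tgrp they were at 300 and 319 CPM, against 321 and 337.

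**Figure D2:**
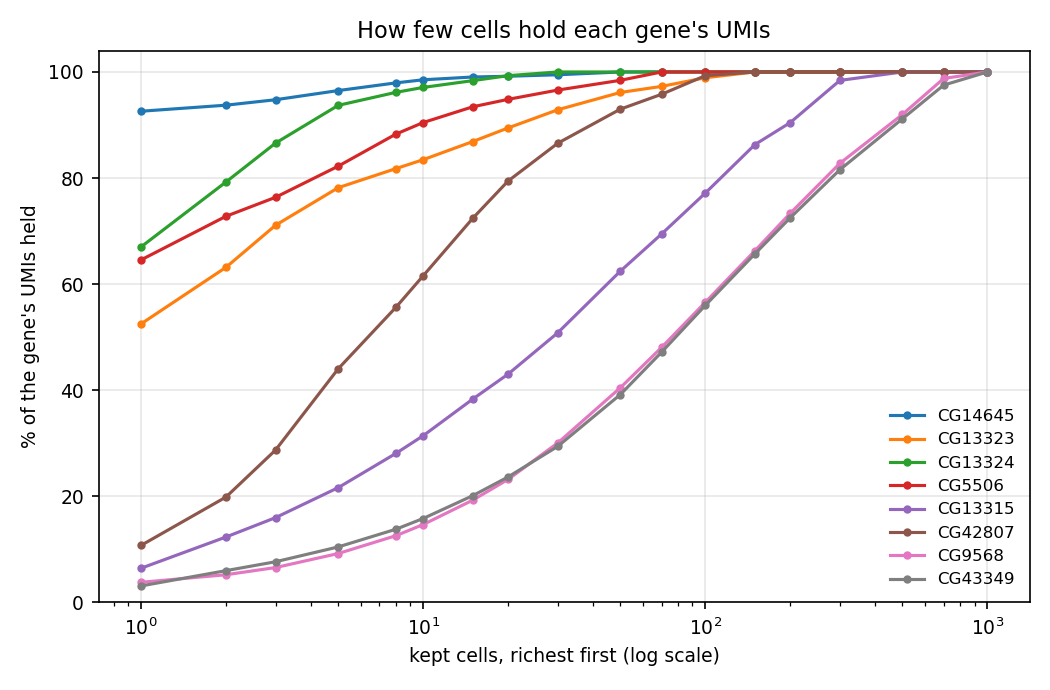
Share of each gene's UMIs (y axis, percent) held by its richest kept cells (x axis, number of cells, log scale). CG14645 starts at 92.6% in 1 cell, while CG9568 and CG43349 start below 4% and need 441 and 463 cells to reach 90%.

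Above all others stood 2 cells that held more than 900 UMIs of a member gene. A Tgrp cell with 11606 UMIs held 3327 of CG14645 (28.7% of the cell), 738 of CG5506 and 75 of CG42807, so that the 8 genes made up 35.8% of its transcripts. It also held 387 UMIs of Cda9, a chitin deacetylase gene, 221 of CG4783 and 33 of CG16775, a neighbour of CG5506. It had 15 UMIs of Ssk, 1 of mesh, 1 of Tsp2A and none of nub.

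A Tind2 cell with 8112 UMIs held 965 of CG13323, 575 of CG13324, 78 of CG42807, 27 of CG9568 and 26 of CG13315. Beside these it had 207 UMIs of the protease gene Jon65Aiii, 98 of Npc2e (a member of the sterol-binding Npc2 family), 88 of alphaTry and 90 of Ssk. Only 0.222% of its UMIs were mitochondrial, against a median of 8.77% in kept Tind2 cells. These cells shared CG42807 but not their leading genes: the Tgrp cell had 6 UMIs of CG13323 and 5 of CG13324, and the Tind2 cell had 2 of CG5506 and none of CG14645.

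Smaller versions of both profiles occurred in other libraries. A Tind1 cell of 1413 UMIs held 41 UMIs of CG14645 and 41 of CG5506. A Tind2 cell of 1160 UMIs held 94 UMIs of CG5506, 3 of CG14645, 34 of Cda9 and 54 of Cht8, a chitinase gene. A Tgrp cell of 1681 UMIs held 196 UMIs of CG13323 and 105 of CG13324, with 5 of alphaTry and none of Jon65Aiii.

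At equal depth, 621 of 7694 kept cells (8.07%) had a UMI of at least 1 of the 8 genes. Over the tumors the share was 7.30% ± 3.23 (SD, n = 6), and it was 11% in Tgrp. It was highest in Tind3 (12.8%) and Tind4 (9.74%) and lay between 5.04% and 5.62% in the other 4 tumors. Most of these cells, 453, had 1 of the genes, and 115, 40, 10 and 3 cells had 2, 3, 4 and 5 of them.

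Of the 28 pairs of the 8 genes, 25 were found together in more cells than their separate shares within each library would give. The other 3 pairs, CG14645 with CG9568, CG14645 with CG43349 and CG13324 with CG9568, were never found together, where at most 0.547 cells would have been expected. These 0 counts are within what the depth allows.

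The most common pair was CG9568 with CG43349, in 89 cells against 11.8 expected (7.52-fold). It held 32.1% of the CG9568-positive and 33.2% of the CG43349-positive cells. The pair was seen in 62 cells of Tgrp, 15 of Tind4, 4 of Tind1, 4 of Tind3, 3 of Tind2 and 1 of Tind5, and in no cell of Tind6, where 0.154 were expected. CG43349 was found in 44.0% of CG9568-positive and 3.06% of CG9568-negative Tgrp cells, and in 30.6% and 2.77% of those of Tind4. In Tind1 the shares were 8.89% of CG9568-positive and 1.88% of CG9568-negative cells. Without Tgrp the ratio over the tumors was 5.70.

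CG13315 joined this pair: it was found with CG43349 in 45 cells against 5.77 expected (7.79-fold) and with CG9568 in 34 against 5.70 (5.96-fold). Tgrp held 40 of those 45 cells, and Tind4 and Tind5 held the other 3 and 2. CG42807 was found with CG9568 in 19 cells against 2.40 (7.92-fold).

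The highest ratios among the 8 genes were those of rare genes. CG14645 and CG5506, on different arms of the third chromosome, were found together in 8 cells against 0.0761 expected (105-fold), 4 of Tgrp, 3 of Tind1 and 1 of Tind2. The neighbours CG13323 and CG13324 were found together in 9 cells against 0.137 (65.5-fold), 6 of Tgrp, 2 of Tind5 and 1 of Tind2. CG13323 was present in 75% of CG13324-positive cells, while CG13324 was present in 15.3% of CG13323-positive cells. Across these pairs, CG13324 was found with CG5506 in 5 cells against 0.0635 expected (78.8-fold). It was found with CG14645 in 2 cells against 0.0301 (66.4-fold). Either combination was seen in 1 library.

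nub was found in 48 cells at this depth, 32 of them in Tgrp. Of these cells 23 (47.9%, exact interval 33.3 to 62.8) had at least 1 of the 8 genes, against 7.82% (7.23 to 8.45) of nub-negative cells. CG13315 was present in 12 nub-positive cells, and CG9568 and CG43349 in 11 each. CG14645 and CG13324 were present in none, which at 48 cells allows shares up to 7.40%. The median depth was 1153.5 UMIs in nub-positive and 1287 UMIs in nub-negative cells.

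Trypsin transcripts were scarce: of 11 trypsin genes in the list, 3 had no UMI in the kept cells of the 6 tumors and alphaTry alone reached 100 UMIs. alphaTry had 50 UMIs in Tind5, 95 in Tind2 (88 of them in the extreme cell), 15 in Tgrp and 1 in Tind4, and betaTry had 38 UMIs, all in Tind5. The same numbers of alphaTry and betaTry UMIs remained in Tind5 without the shared barcodes. At 300 UMIs, 11 cells were alphaTry-positive, 8 of Tind5, 2 of Tind2 and 1 of Tgrp. Of these, 10 had at least 1 of the 8 genes (90.9%, 58.7 to 99.8), against 7.95% (7.36 to 8.58) of alphaTry-negative cells.

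CG13323 was the gene most often found with the trypsins, in 7 of the 11 alphaTry-positive cells (63.6%, 30.8 to 89.1) and 0.677% of alphaTry-negative cells. It was in 3 of the 4 betaTry-positive cells. CG13324 was in 4 and CG42807 in 3 of the alphaTry-positive cells, while CG9568 and CG43349 were in 2 each and CG14645 in none. At full depth 24 kept cells held alphaTry or betaTry, and 16 of them held CG13323 or CG13324: 6 of 10 in Tind5, 5 of 7 in Tind2, 5 of 6 in Tgrp and 0 of 1 in Tind4. No cell at 300 UMIs held nub with a trypsin, where 0.143 were expected for alphaTry. The alphaTry-positive cells were shallower, with a median of 526 UMIs against 1287.

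**Figure D3:**
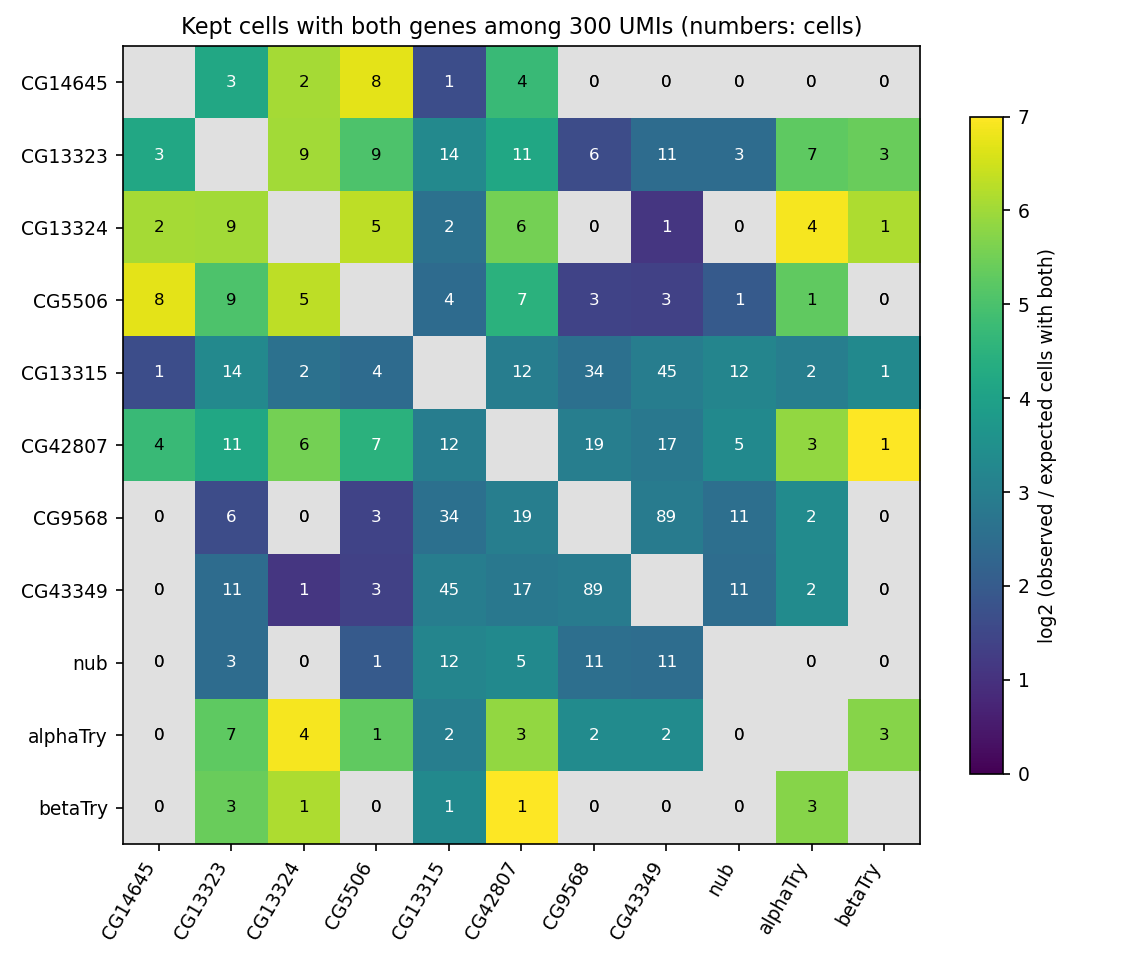
Number of kept cells (printed) in which both genes of a pair were found among 300 UMIs, with the log2 ratio to the number expected within libraries as color (grey, no cell). Among pairs of the 8 genes, CG14645 with CG5506 has the highest ratio, on 8 cells, and CG13323 with CG13324 shares 9. Some pairs with the trypsins also have high ratios, on fewer cells, while CG9568 and CG43349 share 89 cells.

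Free RNA in droplets can place a UMI in a cell that does not express the gene. Delta, the Notch ligand of intestinal stem cells, was found in 253 cells, and 1.98% of these (0.645 to 4.55) had CG9568, against 3.66% of Delta-negative cells. CG43349 was found in 1.58% (0.432 to 4.00) against 3.55%, and any of the 8 genes in 5.53% (3.06 to 9.11) against 8.16%. The median depths were 1423 and 1283 UMIs. Over the libraries, the Delta-positive cells with CG9568 were 0 of 39 in Tind1, 0 of 112 in Tgrp and 3 of 36 in Tind4, so the pooled share is no single level of background. The pooled intervals for any of the 8 genes in nub- and alphaTry-positive cells lay above that in Delta-positive cells. These classes drew on the libraries unequally. Tgrp held 112 of the Delta-positive and 1 of the alphaTry-positive cells, and Tind5 held 18 and 8. The part of free RNA in these shares was not tested.

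The genes were chosen as leading genes of enterocyte-like cells of these libraries, so their overlap with the junction genes in kept cells follows in part from that choice and is given as a description. At least 2 of mesh, Ssk and Tsp2A were found in 421 kept cells at 300 UMIs, and none of them in 6576. CG9568 was found in 33.3% (28.8 to 38.0) of the cells with junction genes, against 0.912% (0.697 to 1.17) of the cells without. CG43349 was found in 25.7% (21.5 to 30.1) against 1.34%, and CG13315 in 15.2% (11.9 to 19) against 0.563%. For CG13323 the shares were 4.28% and 0.335%, for CG42807 4.28% and 0.228%, for CG5506 1.43% and 0.0912%, and for CG13324 0.95% and 0.0912%. The pooled shares of some genes came mostly from Tgrp. It held all 6 cells with junction genes and CG5506, 17 of 18 with CG42807 and 50 of 64 with CG13315. For CG13323 it held 8 of 18 and for CG13324 2 of 4.

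CG14645 did not follow: it was found in 1 of the 421 cells with junction genes (0.238%, 0.00601 to 1.32), against 0.182% (0.0943 to 0.319) of the cells without. Any of the 8 genes was found in 53.0% against 3.41%. The median depths of these classes were 1149 and 1298.5 UMIs.

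The difference for CG9568 was present in every library. Its share in cells with and without junction genes was 30.9% and 0.696% in Tind1, 42.9% and 0.476% in Tind2, and 47.1% and 3.49% in Tind3. It was 29.9% and 1.53% in Tind4, 17.1% and 0.413% in Tind5, 20.0% and 0.437% in Tind6, and 36.3% and 1.04% in Tgrp. CG43349 behaved likewise except in Tind6, where it was in 0 of 10 cells with junction genes and in 2.18% of those without.

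Cells with at least 3 UMIs of a gene at full depth gave a second view, with the UMIs of other genes set against the number expected from the other kept cells of the same library. The 2 extreme cells were left out. There were 402 cells rich in CG9568 or CG43349, 203 of Tgrp, 96 of Tind1, 62 of Tind4 and 41 of the other 4 tumors. They held 1179 UMIs of mesh against 94.3 expected (12.5-fold), 6213 of Ssk against 514 (12.1-fold), 1515 of Tsp2A against 164 (9.23-fold) and 116 of nub against 12.5 (9.26-fold). The transcription factor esg, which keeps stem cells and enteroblasts undifferentiated, was lower, with 112 UMIs against 216.

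mesh was above its expected number in these cells in all 7 libraries, at 3.47-fold in Tind3, 8.66-fold in Tind5, 9.19-fold in Tind6, 10.8-fold in Tgrp, 13.9-fold in Tind4, 21.6-fold in Tind1 and 52.9-fold in Tind2. esg was at 0.958 of its expected number in Tind1 and at 0.352 in Tgrp. It was below it in each library but Tind6, where 1 UMI was seen against 0.681 expected.

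The 114 cells rich in CG13315 were similar, with 344 UMIs of mesh against 35.9 and 40 of nub against 4.14. Cells rich in CG43349 held 294 UMIs of its neighbour CG43348 against 6.33 expected, and 321 of CG5011 against 25.0. CG9568, which lies elsewhere, marked cells with the same 2 genes (226 against 9.94 and 283 against 24.6 UMIs). But 203 of these 267 cells also held CG43349, with 1794 UMIs against 87.0 expected. Whether reads of CG43349 were counted for its neighbours was not tested.

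The 42 cells rich in CG13323 or CG13324 were led by another uncharacterized gene, CG15043, with 314 UMIs against 0.420 expected, in 12 of the cells. They held 48 UMIs of alphaTry against 0.234 and 21 of Jon65Aiii against 0.0751. In Tind5, 4 of 6 such cells held alphaTry, with 39 UMIs against 0.122 expected, while in Tind1 none of 8 did. mesh was present at 83 UMIs against 14.7, but not in the 6 cells of Tind2, which had no mesh, Ssk or Tsp2A UMI.

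The 9 cells rich in CG13324 were not rich in junction transcripts: 5 UMIs of mesh were seen against 5.41 expected and 20 of Ssk against 23.1. The 40 cells rich in CG13323 had 83 of mesh against 12.3. Without the 2 extreme cells, CG13324 and CG14645 were thus the 2 genes whose rich cells showed least of the enterocyte junction genes. With the extreme cells, the 11 cells rich in CG13324 held 125 UMIs of Ssk against 37.3 expected and 26 of Tsp2A against 11.2. The extreme Tind2 cell held 90 of those Ssk UMIs. For mesh, 11 UMIs were then seen against 8.69.

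The cells rich in CG14645 or CG5506 had a profile of their own. There were 20 without the extreme Tgrp cell, 12 of Tgrp, 7 of Tind1 and 1 of Tind2. They held 70 UMIs of Cda9 against 0.0362 expected and 72 of Cht8 against 0.0421. With the Tgrp cell they were 0.263% of kept cells. Leaving out the 2 extreme cells, they held 92.1% of all Cda9 UMIs, 80.9% of Cht8 and 87.5% of the 8 UMIs of CG16775, the neighbour of CG5506. The shares were lower for CG4783 (34%) and Cht4 (5.16%). The 1 Tind2 cell of this group held 34 of the 70 Cda9 and 54 of the 72 Cht8 UMIs.

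The libraries differed within this group. In Tind1, 6 of 7 cells had Cda9 and 5 of 7 had Cht8, and none had CG15043 or alphaTry. In Tgrp, 1 of 12 cells had Cda9 and none Cht8, whereas 6 of 12 had CG15043 (225 UMIs against 0.222 expected) and 2 had alphaTry. mesh was at 3 UMIs against 2.65 expected in the Tind1 cells and at 19 against 3.22 in the Tgrp cells.

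For CG14645 alone, 12 cells held 5 UMIs of mesh against 3.66 expected, 51 of Ssk against 25.3, 11 of Tsp2A against 7.10 and 2 of nub against 0.558. The junction and nub transcripts seen with CG14645 were few.

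The 3 sets overlapped only in part. With the extreme cells, 21 cells were rich in CG14645 or CG5506, 44 in CG13323 or CG13324 and 403 in CG9568 or CG43349. The first and the second set shared 7 cells (33.3% and 15.9% of each), the first and the third 7 (33.3% and 1.74%), and the second and the third 12 (27.3% and 2.98%).

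**Figure D4:**
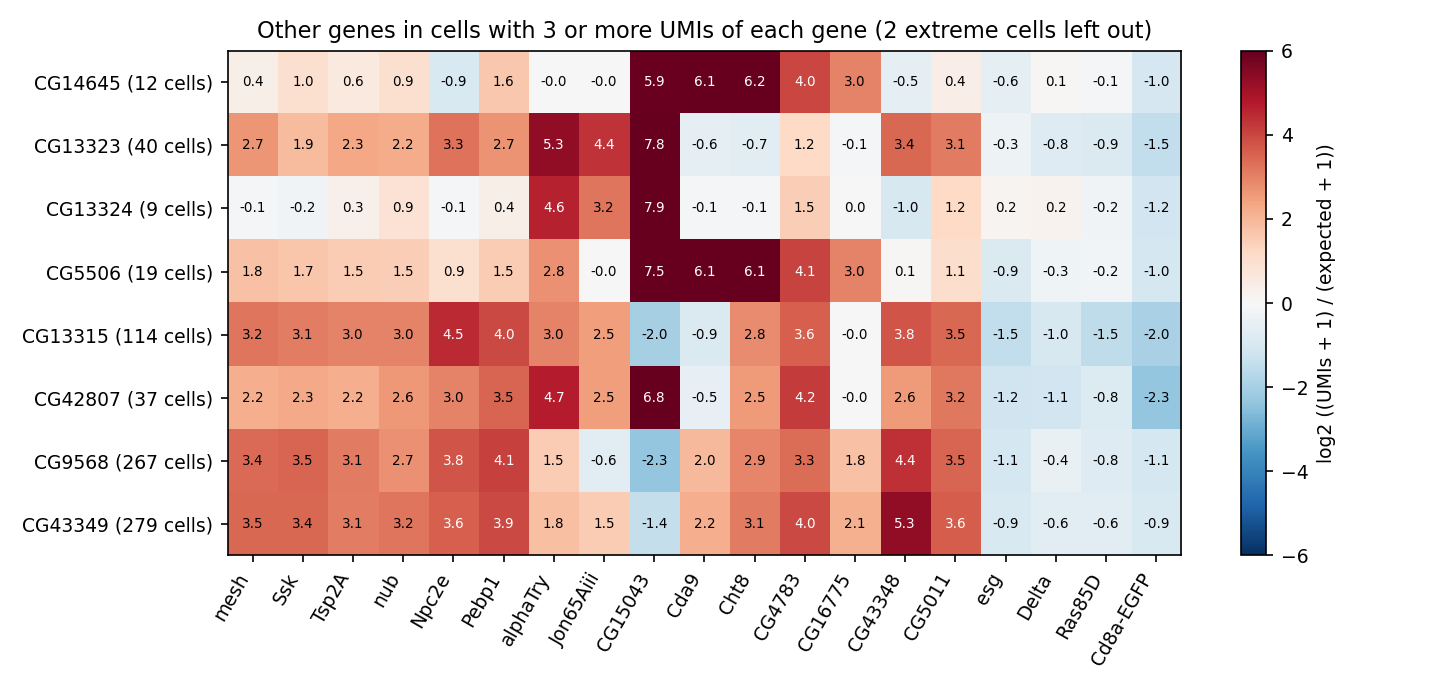
Log2 ratio of observed to expected UMIs, with 1 added to each, of other genes (columns) in kept cells with at least 3 UMIs of each of the 8 genes (rows), without the 2 extreme cells. mesh is at 3.4 for CG9568 and 3.5 for CG43349 but at 0.4 for CG14645, where Cda9 is at 6.1, and alphaTry is at 5.3 for CG13323.

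CG9568 was also found in cells with enteroendocrine transcripts. Enteroendocrine cells secrete peptide hormones, and 28 kept cells had at least 2 of the 9 genes pros and 8 hormone genes, 22 of them in Tgrp, 5 in Tind5 and 1 in Tind6. The enteroendocrine list also held Orcokinin, ITP, sNPF and Burs, which were not used to define this group. The group was looked at after the levels had been seen. At 300 UMIs, 15 of the 28 had CG9568 (53.6%, 33.9 to 72.5), against 3.42% of the other kept cells. In Tgrp it was 14 of 22 (63.6%, 40.7 to 82.8) against 4.38%, and in Tind5 0 of 5 against 1.43%.

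In Tgrp the level of CG9568 was 4257 CPM in these cells, against 284 CPM in the others, so that 0.753% of the cells held 12.2% of its UMIs. CG43349 was at 632 CPM against 334 CPM. These cells also had Ssk (4447 against 979 CPM) and mesh (1054 against 225 CPM). All 17 cells with at least 2 UMIs of the hormone gene AstA were in Tgrp, and 11 of them had CG9568. Whether they are single cells or 2 cells in 1 droplet was not tested.

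The genes most like the 8 were found by comparing cells with and without any of them in each tumor. The measure was the log2 ratio of a gene's share of UMIs, positive over negative cells, over 6 tumors, for genes with at least 100 UMIs. Before each ratio, 1 UMI was split between the positive and negative cells by their totals. A gene seen only in the negative cells of a tumor thus got a ratio below 0, even where few UMIs were expected. Of 5137 such genes, 224 (4.36%) had a ratio above 0 in all 6 tumors and 238 (4.63%) below 0 in all 6, and the median gene was at -0.47. The 10 with the highest means among those above 0 in all 6 were CG15210 (4.29 ± 1.55, SD), CG5011 (3.86 ± 1.26), CG13321 (3.59 ± 0.96), mesh (3.55 ± 0.59), CG44008 (3.37 ± 1.64), Ssk (3.35 ± 1.14), Tsp2A (3.17 ± 0.89), CG34176 (3.15 ± 2.03), CG11686 (3.13 ± 1.12) and the lysozyme gene LysX (3.1 ± 0.82). All 10 were above 0 in Tgrp too. 3 of the 10 were the septate junction genes, and 6 had no name beyond a CG number. The neighbour CG5011 was the second.

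The 5 lowest were lncRNA:alphagamma-element:CR32865 (-3.42 ± 2.26), CG6040 (-3.20 ± 1.89), bw (-3.10 ± 1.12), lncRNA:CR44716 (-3.07 ± 2.20) and Nelf-A (-3.06 ± 2.02). In the positive cells of the 6 tumors together they had 56, 10, 3, 2 and 16 UMIs, so these means rest on few counts. The entry Cd8a-EGFP, by its name a fluorescent reporter that the labels do not define, was below 0 in all 6 tumors, with a mean of -2.61 ± 1.81. Median depths of the positive and negative cells differed in both directions, from 1688 against 2540 UMIs in Tind4 to 2209 against 1725 UMIs in Tind1.

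By list, 4 of the 6 enterocyte genes with enough UMIs were above 0 in all 6 tumors (median of the list 2.88). nub was above 0 in 5 of 6 (mean 2.60 ± 1.82), with a negative value in Tind6, where it had 1 UMI. Of the 11 trypsin, 16 Jonah and 23 carbohydrate and lipid digestion genes, 1, 1 and 3 had at least 100 UMIs. None of them was above 0 in all 6 tumors: alphaTry (2.80 ± 4.76), Jon65Aiii (2.92 ± 4.55), Mal-A5 (0.16 ± 1.96), Mal-A6 (2.68 ± 2.36) and Npc2e (2.78 ± 3.42). In these lists 3, 9 and 7 genes had no UMI. Of the 10 dividing-cell genes 1 was below 0 in all 6 (median -1.50), and of 7 stem cell and enteroblast genes 1 (median -0.65). The dividing-cell ratios rest on few UMIs, with 6 (aurB) to 83 (PCNA) in positive cells. Summed, that list differed less, with a median of 338 CPM in positive and 547 CPM in negative cells. Of 8 heat shock genes 5 were below 0 in all 6 tumors (median -1.66). Hsp26 was at -1.54 and Hsp27 at -2.09, and the part of heat shock transcripts in these ratios was not tested. Hemocyte markers were near 0: 1 of 6 had no UMI, none reached 100 UMIs, and the list summed to 0 to 40.1 CPM in positive cells and 0 to 7.94 CPM in negative cells. Visceral muscle markers summed to 0 to 121 CPM in positive cells and 7.02 to 108 CPM in negative cells. Of the 13 enteroendocrine genes 2 had at least 100 UMIs, and neither was above or below 0 in all 6 tumors. Orcokinin was at -3.14 ± 4.14, with 9 UMIs in positive and 624 in negative cells, and ITP at 0.26 ± 0.45. Among rarer hormones, Tk had 0 and 91 UMIs, AstC 1 and 48, and CCHa2 84 and 5.

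The cells that the limits left out were not used to choose the genes. A first comparison asked whether cells over the mitochondrial limit, often taken for dying cells, differ from kept cells of the same tumor. For each tumor the UMIs of either class were added up without mt: genes, and edgeR's quasi-likelihood test was run on these sums with the tumor as a block. Of 2040 genes, 62 (3.04%) passed an adjusted p of 0.05, 30 higher (1.47%) and 32 lower (1.57%) in cells over the limit. Of the 8 genes, CG9568 and CG43349 had enough UMIs to enter the fit. The kept cells in this comparison are those the genes were chosen on, so the values of both are a description and no test of them.

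CG9568 had 203, 35.3, 953, 192, 417 and 13.4 CPM in cells over the limit of Tind1 to Tind6, against 124, 124, 614, 215, 79.2 and 86.4 CPM in kept cells. It was higher over the limit in 3 tumors and lower in 3, with a log2 change of 0.30 (SE 0.33). CG43349 had 299, 61.7, 498, 107, 229 and 6.71 CPM over the limit, against 147, 82.6, 522, 253, 83.1 and 96.0 CPM in kept cells. Its log2 change was -0.08 (SE 0.33). The sign of either changed with the setting.

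The enterocyte list had a median log2 change of -0.04 over 5 genes, against -0.0094 over all genes tested. By edgeR 0 of the 5 were called, with adjusted p of 0.277 (Myo61F, the one with an unadjusted p under 0.05) to 0.979 (Tsp2A), and DESeq2 called 0 as well. Among the genes that changed, the pseudogene 28SrRNA-Psi:CR40596 rose most (1.43, SE 0.20, adjusted p = 0.000821). It was followed by Nepl21 (1.15), aos (0.92), fog (0.87) and Mctp (0.84). The metallothionein gene MtnE fell most (-2.71, SE 0.39, adjusted p = 0.000821), followed by CG33494 (-1.63), CG14545 (-1.61), lncRNA:CR43264 (-1.44) and CG32625 (-1.39). The count of calls was 8 without Tind4, and 0 without the tumor block, where 111 genes had an unadjusted p under 0.05.

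A relation of the 8 genes to trypsins could not be tested in left-out cells, since none of the 1619 with 300 UMIs was trypsin-positive. In its place, and after seeing this, left-out cells with CG9568 or CG43349 among 300 UMIs were compared with those without in the same tumor. The classes held 21, 3, 19, 21 and 11 positive cells in Tind1 to Tind5, against 187, 134, 89, 306 and 180 negative cells. Tind6 had only 2 positive cells and was left out. Left-out cells failed the mitochondrial limit or the limits on gene number. Over the mitochondrial limit were 148 of 208 in Tind1, 133 of 137 in Tind2 and 170 of 327 in Tind4. In Tind4 those 170 held 223703 UMIs without mt: genes, against 193613 in all positive and 2708186 in all negative cells. In Tind1 the 148 held 167158, against 144918 and 699682. Doublets were not called, and cells over the mitochondrial limit were not tested apart from the others. Of 1287 genes, 34 (2.64%) passed, 28 higher (2.18%) and 6 lower (0.466%) in positive cells.

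The junction genes rose in all 5 tumors. mesh had 665, 917, 469, 487 and 2660 CPM in positive cells of Tind1 to Tind5, against 197, 67.7, 153, 67.6 and 193 CPM in negative cells, so that the groups did not overlap. Its log2 change was 2.34 (SE 0.34, adjusted p = 4.95e-09 by edgeR). Ssk had 4368, 4125, 1876, 3532 and 7255 CPM in positive cells, against 1359, 496, 358, 645 and 535 CPM in negative cells (2.22, SE 0.40, adjusted p = 3.53e-06). Tsp2A rose by 1.92 on the log2 scale (adjusted p = 6.39e-06), with 699 to 1935 CPM in positive and 82.7 to 384 CPM in negative cells. Without the filter on low counts Ssk had an adjusted p of 0.0779 and Tsp2A of 0.116, while mesh passed in every setting tried.

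Of the enterocyte list, 4 of 5 tested genes rose: mesh, Ssk, Tsp2A and the brush border myosin Myo61F (1.43, adjusted p = 0.00233). Myo31DF, another myosin, was at 0.68 (adjusted p = 0.611). All 7 of the 10 most alike genes that could be tested rose, with mesh, Ssk and Tsp2A counted again among them. The 10 had been picked on kept cells of the same tumors. CG11686 was at 2.76 (SE 0.42, adjusted p = 1.84e-08) and CG13321 at 2.39 (SE 0.37, adjusted p = 1.95e-08). Both were higher in positive cells of all 5 tumors.

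Npc2e had the largest change, 3.06 (SE 0.40, adjusted p = 5.01e-11), but not in every tumor. It had 6.92, 1375, 391, 166 and 5079 CPM in positive cells of Tind1 to Tind5, against 8.58, 67.7, 230, 3.32 and 398 CPM in negative cells. Tind1 went the other way, on 1 UMI against 6, and without the tumor block the adjusted p was 0.846.

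The genes that fell were lncRNA:alphagamma-element:CR32865 (-1.81), Cd8a-EGFP (-1.73, SE 0.46, adjusted p = 0.00763), the small heat shock gene Hsp23 (-1.68, adjusted p = 0.00397), CG8620 (-1.53), the glutathione transferase gene GstD5 (-1.41) and Ras85D (-1.41, SE 0.42, adjusted p = 0.0316). Ras85D is the gene of the RasV12 transgene, whose transcripts were not told from those of the chromosomal gene. Cd8a-EGFP had 13.8, 0, 0, 93.2 and 0 CPM in positive cells, against 102, 181, 76.7, 222 and 114 CPM in negative cells. It was lower in positive cells of all 5 tumors, but those of Tind2, Tind3 and Tind5 held only 2191, 12856 and 4184 UMIs. The zeros of these tumors therefore allow for the levels of the negative cells. The call of Cd8a-EGFP was lost in 5 of the settings in which it could be tested, among them DESeq2 (adjusted p = 0.0766) and 500 UMIs (0.139). Ras85D, Hsp23, CG8620 and GstD5 each lost their call in at least 3 settings. Of 4 stem cell and enteroblast genes tested none was called, and esg was at -0.95 (adjusted p = 0.329).

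**Figure D5:**
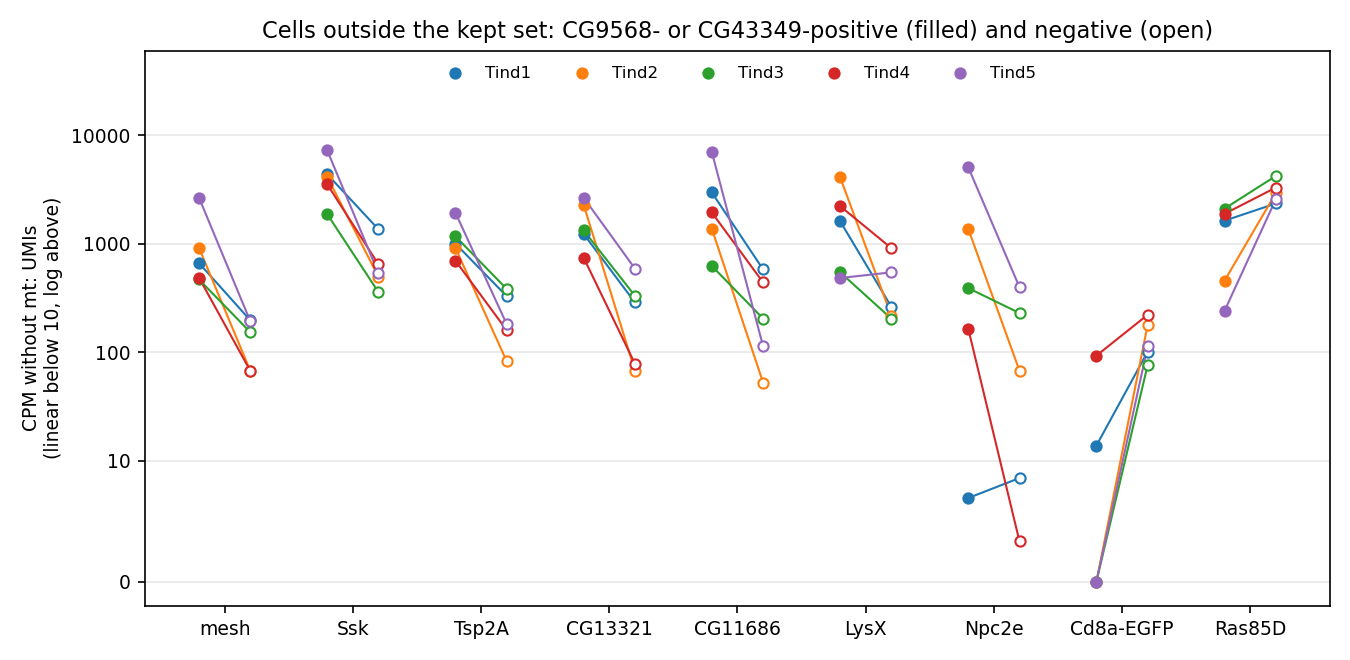
CPM without mt: genes (y axis, linear below 10 and logarithmic above) in left-out cells with (filled, left) and without (open, right) a CG9568 or CG43349 UMI among 300, for 9 genes (x axis) in 5 tumors (colors). Lines join the classes of 1 tumor. mesh, Ssk, Tsp2A, CG13321 and CG11686 are higher in the positive cells of all 5 tumors, and Cd8a-EGFP and Ras85D are lower. The zeros of Cd8a-EGFP in Tind2, Tind3 and Tind5 rest on few UMIs.

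The pairing of CG9568 with CG43349 was looked at in the same left-out cells, also after seeing the data. Over the 6 tumors, 12 of 51 CG9568-positive cells had CG43349 (23.5%), against 26 of 1085 CG9568-negative cells (2.40%). The log2 ratio of CG43349 between these classes was 2.10, 4.70, 0.66, 3.16, 0.73 and -1.0 in Tind1 to Tind6, with a mean of 1.72 ± 2.03 (SD, n = 6). It was above 0 in 5 of 6 tumors, and by exact permutation of the signs (two-sided) p was 0.125, where the smallest p possible is 0.03125. With classes at 500 UMIs the mean was 0.34 (exact p = 0.719, 6 tumors). In Tgrp, not part of the test, the ratio was 4.05. A difference from 0 was thus not established across the tumors.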

How the data were processed

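The authors deposited raw UMI counts for each gene in each called cell. Reads of 3′ libraries had been aligned to release r6.42 of the fly genome by Cell Ranger 6.0.1. Of 17619 entries, 17556 matched a symbol of the Ensembl annotation of release 6. No reads, genome sequence or promoter tables were used here, and CG-numbered genes were not searched for similar copies.

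The mitochondrial limit of 15% is the study's, and the limits of 100 and 2000 genes were set for this work. For shares at equal depth, 300 UMIs were drawn per cell without replacement (seed 1), and expected pair counts were summed within libraries. Intervals are exact binomial (95%), a 0 count allows up to 3 counts of the total, and both cover counting error only. Doublets were not called; leaving out the 5% of cells with the most UMIs was an alternative. Cells share a library, so all tests compared sums per tumor. Since nothing says that the tumors came from separate flies, p-values refer to these samples alone. The edgeR test draws the spread of a gene in part from the other genes. A small adjusted p is therefore no measure of how alike the tumors were for that gene. Npc2e had an adjusted p of 5.01e-11 by edgeR although Tind1 went the other way.

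The 8 genes and all lists were chosen with earlier results of these data known. Named genes are the 8, nub, alphaTry and betaTry, the 10 most alike and 5 least alike, and the 5 largest rises and falls among called genes of each test. Other genes were named after their values were seen. The planned test of trypsin-positive left-out cells could not be fitted and was replaced after seeing the data. Sums went into edgeR 4.0.16 in R 4.3.3 (filterByExpr, TMM scaling, quasi-likelihood test, Benjamini-Hochberg adjustment), tested on simulated data, with DESeq2 1.42.0 as an alternative. Python 3.11.15, numpy 2.4.6, scipy 1.17.1, pandas 2.3.3 and matplotlib 3.10.9 were used. Alternatives covered tool, filter, block, mitochondrial limit, depth of the draw, seed, shared barcodes, the richest cells and each tumor left out.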

Additional observations from a re-analysis of the deposited data

Results flagged for a closer look

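Among the 6 tumors, 1 lay far from the others in 9 of 17 measures, by its gap to the next tumor over the range (above 0.625). Chance gives about 1 in 20 such gaps for independent, normally spread values. These measures are neither: many are at 0, the levels of CG13323, CG13324 and CG42807 in Tind2 share 1 richest cell, and the genes were chosen on these cells, so the gaps are a description. Tind2 stood apart in the level of CG13323 (834 CPM), CG13324 (474 CPM), CG5506 (84.7 CPM) and CG42807 (103 CPM), and in the share of cells with CG42807 at 300 UMIs (1.12%). Without the richest Tind2 cell of each gene these levels were 40.6, 1.66, 7.41 and 38.9 CPM. Tind5 stood apart in the level of CG13315 (234 CPM) and in the share of cells with CG13324 (0.355%, 2 of 564 cells). Tind1 stood apart in the level of CG14645 (35.6 CPM), and Tind3 in the level of CG9568 (554 CPM).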

How the results depend on the processing

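The number of genes called between cells over the mitochondrial limit and kept cells was 62. It was 131 without the filter on low counts, 0 without the tumor block, 40 with a limit of 20% and 39 with a limit of 10%. Leaving out each tumor gave 8 to 55, the lowest without Tind4 and 33 to 41 without Tind1, Tind3 or Tind6. For CG9568 the log2 change of 0.30 was -0.067 with DESeq2, -0.30 with the limit of 10%, and -0.12 (without Tind5) to 0.54 leaving out each tumor. For CG43349, -0.08 became 0.22 without Tind4 and 0.10 without Tind6, and leaving out each tumor gave -0.44 to 0.22. The number called between CG9568- or CG43349-positive and negative left-out cells was 34. It was 57 without the filter, 7 without the block and 16 to 39 leaving out each tumor, the lowest without Tind1. DESeq2 gave 51 and 23 calls. The causes were not tested, beyond the larger number of genes tested without the filter (11195 and 9801).

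CG43349 in CG9568-positive against negative left-out cells had a mean log2 ratio of 1.72, and 1.13 to 2.27 leaving out each tumor. The 25 pairs found together more often than expected were 27 at 500 UMIs and 19 in the tumors alone, and the alphaTry-positive cells with a member were 75% with another seed. With a limit of 30% mt: UMIs the mean of CG14645 was 26.2 CPM, against 7.96. The individual tumors and the group library could not be paired, since they share only the number 1. The tests paired the classes of cells within each tumor, in edgeR with the tumor as a block. Shallow libraries limit zeros: 3 counts are 16.6 CPM in Tind3 and 0.584 CPM in Tgrp.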
